A study of Homo sapiens with 12 samples.

Results

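The genes described here are 32 named targets of the transcription factor ATF4 and their partners, listed by name. They fall into 4 roles: 5 transcription factors of the pathway (ATF4, ATF5, DDIT3, CEBPB and CEBPG), 5 stress effectors (DDIT4, TRIB3, CHAC1, SESN2 and VLDLR), 10 enzymes of serine, one-carbon and amino acid metabolism, and 12 cytosolic aminoacyl-tRNA synthetases. All 32 were found by symbol among the 23228 genes of the deposited tables, and all 32 passed the filter on low counts that 14541 genes passed. Synthetase symbols are the older ones used in the tables (SARS is now SARS1, for example).

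The cells were MDA-MB-468, an established human line from a triple-negative breast tumor, made to express estrogen receptor beta 1 (ERβ1, gene ESR2) when doxycycline is added, and their total RNA was sequenced. All of them grew for 3 days without phenol red in 10% serum stripped with charcoal, and in 5% of that serum during the experiment. The 4 groups of 3 libraries were induced E2 (50 ng/mL doxycycline for 48 hours, then 10 nM 17β-estradiol for 4 hours), induced vehicle (the same doxycycline, then 0.1% DMSO), uninduced E2 (no doxycycline, E2) and uninduced vehicle (no doxycycline, DMSO). No group carried doxycycline without the receptor construct, so effects of doxycycline itself and of ERβ1 cannot be told apart, and the labels do not say whether the engineered cells were 1 clone or a pool. Nor do they say that replicates were separate cultures, and a p-value here reflects spread between samples that may be technical.

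Total counts were 18 to 26.2 M in induced E2, 12.7 to 31.8 M in induced vehicle, 17.4 to 33.3 M in uninduced E2 and 7.89 to 26.3 M in uninduced vehicle libraries. ESR2 stood at 98 to 116 counts per M (CPM) in induced E2 and 113 to 134 CPM in induced vehicle cells, against 1.27 to 2.26 CPM in uninduced E2 and 1.06 to 1.47 CPM in uninduced vehicle cells. Of the line's markers, EGFR averaged 916 and KRT5 686 transcripts per M (TPM, a per-length scale) over the 12 libraries, and VIM 10.4 TPM. PGR was at 0.00835 TPM and ESR1 at 1.44 TPM. Among genes of other cell types, the leukocyte gene PTPRC was at 0.0677 TPM, while CD14 was at 42.7 TPM and COL1A1 at 8.42 TPM. The date in the deposited file names went with the replicate number and with depth: number 1 carries the earlier date (7.89 to 18 M counts) and numbers 2 and 3 the later date (19 to 33.3 M).

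ATF4 is the effector of the integrated stress response. When kinases such as PERK and GCN2 phosphorylate eIF2α, general translation falls while translation of ATF4 mRNA rises, and ATF4, paired with C/EBP-family partners, then activates genes for amino acid import, serine and one-carbon synthesis and tRNA charging. Because much of this control is translational, the RNA level of ATF4 does not measure the amount of the protein. MDA-MB-468 cells are known for amplification of PHGDH, the enzyme that opens the serine pathway.

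ATF4 and its partners bind the C/EBP-ATF response element, whose core is searched here as TGATGNAA on both strands. RefSeq promoter windows (GRCh38.p14, 250 bases before to 50 after the gene start) were at hand for 27 of the 32 members and held the core in 10 of them (37%), against 2.78% of the 11079 tested genes with a window and 3.62% of all 35116 windows. The 10 sites are shown because they are the letters the pathway's own factor reads and because they recur across the synthetases. Each is given 5′ to 3′ on the gene's strand with the core in capitals, and TTNCATCA is the core read from the opposite strand.
CEBPG (chr19:33374051-33374098, plus strand): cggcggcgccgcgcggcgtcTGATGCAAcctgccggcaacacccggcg
CHAC1 (chr15:40953242-40953289, plus strand): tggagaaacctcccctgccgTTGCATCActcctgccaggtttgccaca
ASNS (chr7:97872449-97872496, minus strand): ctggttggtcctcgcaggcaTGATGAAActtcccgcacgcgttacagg
AARS (chr16:70289666-70289713, minus strand): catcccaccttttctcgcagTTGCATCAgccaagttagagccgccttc
GARS (chr7:30594825-30594872, plus strand): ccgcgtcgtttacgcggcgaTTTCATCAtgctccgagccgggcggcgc
NARS (chr18:57621804-57621833, minus strand): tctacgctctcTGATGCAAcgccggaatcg
IARS (chr9:92293698-92293730, minus strand): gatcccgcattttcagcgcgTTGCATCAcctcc
MARS (chr12:57488053-57488082, plus strand): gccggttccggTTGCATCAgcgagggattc
TARS (chr5:33440956-33440985, plus strand): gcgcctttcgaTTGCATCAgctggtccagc
CARS (chr11:3057407-3057436, minus strand): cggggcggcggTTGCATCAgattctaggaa

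Of the 10 cores, 7 lie in cytosolic synthetases, whose windows numbered 10 of 12. In AARS, CARS, IARS, MARS and TARS the core on the opposite strand was spelled TTGCATCA, the same 8 letters as in CHAC1. The core began 68 bases before the start in ASNS, whose product makes asparagine, 187 before it in AARS and 209 before it in CHAC1, and within 4 bases of the start in CARS, MARS and TARS. Of the 8 cytosolic synthetases outside the 32 genes, 6 had a window and 0 held the core. It was held by 1 of 14 windows of mitochondrial synthetases and 8 of 17 windows of other known ATF4 targets. The palindromic estrogen response element (GGTCA, any 3 bases, then TGACC, which reads the same on both strands) was in 0 of the 27 members' windows and in 20 of all 35116 windows (0.057%). A match is a spelling and not a measured binding site, and its absence says only that these letters are not in the window. The 32 genes were listed as ATF4 targets and partners, so their share of cores is not independent of the listing.

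On the per-length scale many members were abundant in these cells, while others lay near the middle of tested genes. ATF4 averaged 1473 ± 51.5 TPM (SD over 12 libraries), higher than 99.3% of tested genes. PHGDH averaged 809 ± 50.8 TPM, PSPH, which releases serine in the last step of the pathway, 447 ± 31.3 TPM, and PSAT1, the transaminase between them, 366 ± 36.9 TPM. Among the synthetases SARS, which charges serine tRNA, was the highest at 473 ± 29.7 TPM and LARS the lowest at 71 ± 2.76 TPM. The lowest of all members were CTH, the cystathionine gamma-lyase, at 13 ± 2.23 TPM and SESN2, a leucine-sensing stress protein, at 17.9 ± 1.67 TPM. They were higher than 42.6% and 49.6% of tested genes.

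**Figure D1:**
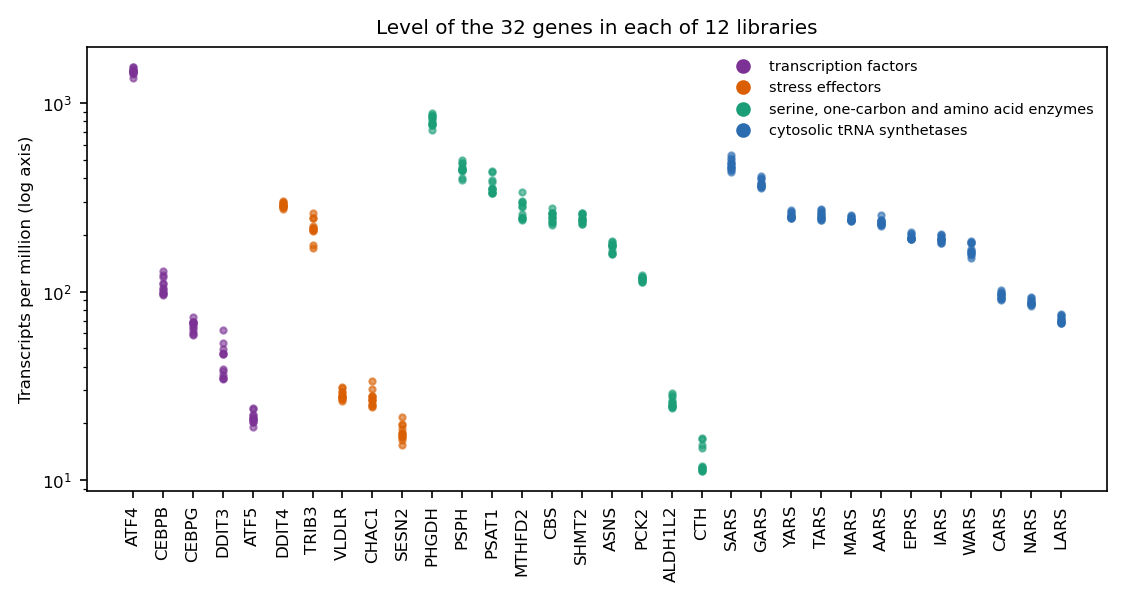
Level of each of the 32 genes in transcripts per M (log axis), with 1 point per library (12 libraries), grouped by role and ordered by mean. ATF4 is the highest and CTH the lowest, and the 12 points of a gene lie close together beside the spread between genes.

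The first question was whether E2 changed these genes in cells holding the receptor. In induced cells E2 raised 7 of the 32 members and lowered 0, by edgeR's quasi-likelihood test with Benjamini-Hochberg adjustment over all tested genes; over those genes 9.85% were called higher and 6.61% lower. The 7 were DDIT3, MTHFD2, CHAC1, CEBPB, SARS, GARS and ATF4, with log2 fold changes of 0.45 to 0.13, and 0 members reached a called 1.5-fold change. The median log2 change over the 32 was 0.07, against −0.01 over all tested genes, and 27 of 32 were positive. The CPM of the induced E2 libraries lay wholly above those of induced vehicle in 14 members and wholly below in 0, against 16.6% and 13.9% of tested genes. The replicate number as a block also takes in the file date. With it 13 members were called higher and 2 lower (13.5% and 10.3% of tested genes). The members added were CEBPG, SESN2, AARS, CARS, MARS and TARS, all higher, and TRIB3 and PSPH, lower. The count of higher members fell to 3 under upper quartile scaling and without induced vehicle replicate 2, induced vehicle replicate 3 or induced E2 replicate 1, and to 4 without uninduced E2 replicate 2 or induced E2 replicate 3. CEBPB and SARS were among the called members in each of these. Over all tested genes, upper quartile scaling called 1258 of 14541 higher. The counts were 1149 of 14650 without induced vehicle replicate 2 and 1131 of 14739 without induced vehicle replicate 3. They were 1353 of 14738 without induced E2 replicate 1 and 1182 of 14738 without induced E2 replicate 3. Without uninduced E2 replicate 2 the count was 1397 of 14652.

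**Figure D2:**
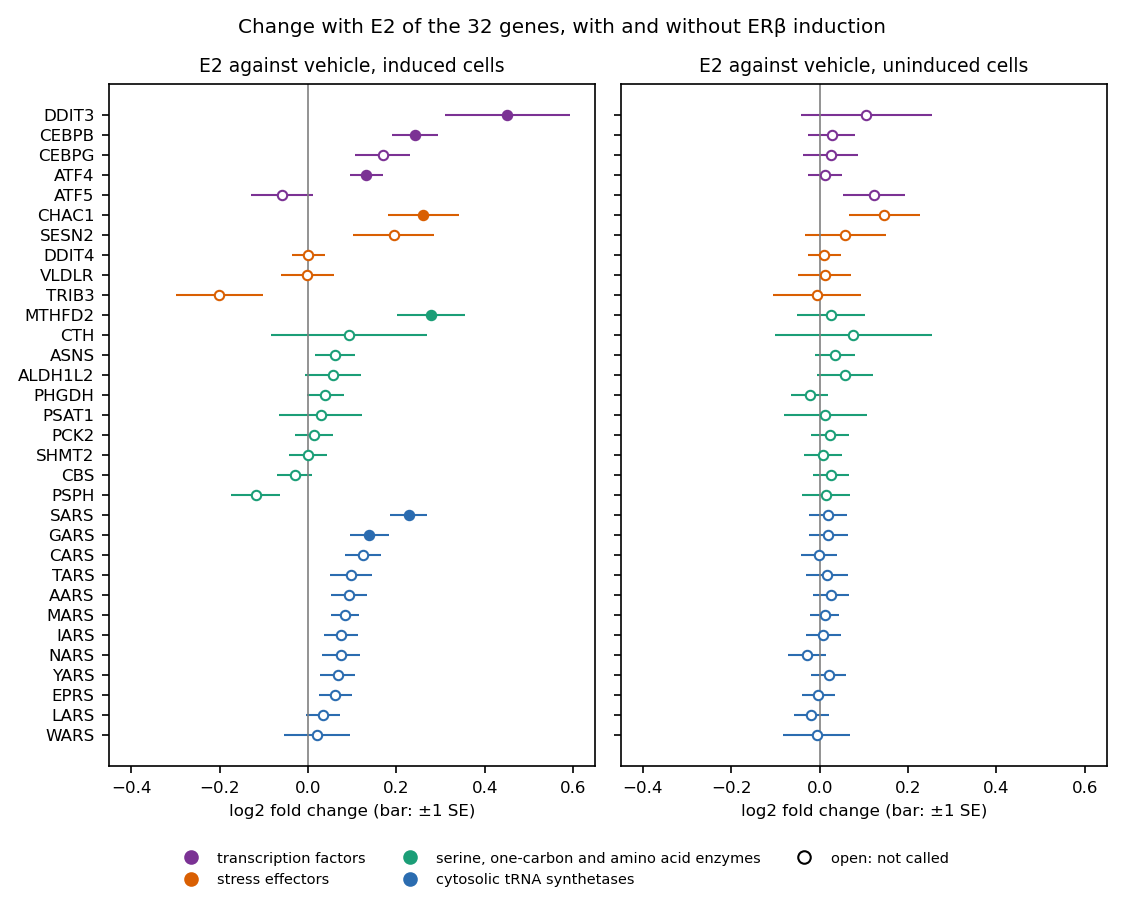
Log2 fold change of the 32 genes with E2 in induced cells (left) and in uninduced cells (right), with bars of 1 standard error and filled points for genes called at an adjusted p under 0.05. Filled points occur only on the left, from 0.13 for ATF4 to 0.45 for DDIT3, and the 12 synthetases lie at the right of 0 there, though WARS turned negative under upper quartile scaling.

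Of the transcription factors, ATF4 itself stood at 978, 1017 and 1009 CPM in induced E2 libraries and at 870, 937 and 934 CPM in induced vehicle libraries. Every induced E2 library was above every other library, since the uninduced ones stood at 895, 957 and 955 CPM with E2 and at 900, 943 and 940 CPM with vehicle. The log2 change with E2 in induced cells was 0.13 (SE 0.04, adjusted p = 0.0283), positive in all 3 pairs of same-numbered libraries. The call was lost without induced vehicle replicate 1 (adjusted p = 0.097), induced E2 replicate 2 (0.105) or induced E2 replicate 3 (0.0906), and under upper quartile scaling (0.0638).

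DDIT3, which encodes CHOP, a factor that ATF4 turns on and that promotes cell death under lasting stress, showed the largest change of the 32. It stood at 25.8, 19.3 and 21.8 CPM in induced E2 libraries and at 19.7, 14.2 and 15.8 CPM in induced vehicle libraries. The groups overlap, and the earlier-dated library was the highest of each, but each same-numbered pair differed by 0.39 to 0.46 on the log2 scale. The log2 change was 0.45 (SE 0.14, adjusted p = 0.0431; 3.51e-05 with the block). With upper quartile scaling the adjusted p was 0.0573. Leaving out 1 library ended the call for 8 of 12 libraries, with the highest adjusted p, 0.217, without induced vehicle replicate 2; it held without the number 1 libraries of uninduced vehicle, uninduced E2 and induced vehicle and without induced E2 replicate 2.

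CEBPB, a leucine-zipper partner of ATF4, stood at 102, 110 and 105 CPM in induced E2 libraries and at 82.3, 92.8 and 92.8 CPM in induced vehicle libraries, which did not overlap. Its log2 change of 0.24 (SE 0.05, adjusted p = 0.00437) passed the test under all 19 alternatives that were run. CEBPG, another such partner, differed by 0.17 (SE 0.06, adjusted p = 0.0859, and 0.00427 with the block), and ATF5, an ATF4 relative, by −0.06 (SE 0.07, adjusted p = 0.67).

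Among the stress effectors, CHAC1, a glutathione-degrading enzyme, stood at 24.4, 20.1 and 20 CPM in induced E2 libraries and at 18.7, 17.7 and 17.3 CPM in induced vehicle libraries. These did not overlap, and its log2 change was 0.26 (SE 0.08, adjusted p = 0.0385). The call was lost without uninduced E2 replicate 2 (adjusted p = 0.0518), induced vehicle replicate 2 (0.115), induced vehicle replicate 3 (0.13) or induced E2 replicate 1 (0.139), with DESeq2 (0.0559), under upper quartile scaling (0.0625) and within the later date alone (0.0548). TRIB3, a pseudokinase induced by ATF4 and CHOP, had its 3 induced E2 libraries at 259, 198 and 204 CPM, against 276, 243 and 240 CPM in induced vehicle libraries. It was lower in each same-numbered pair, by −0.09 to −0.29 on the log2 scale, with a log2 change of −0.20 (SE 0.10, adjusted p = 0.216) that was called only with the block (−0.21, adjusted p = 0.000231) and within the later date alone or without induced E2 replicate 1. SESN2 differed by 0.19 (SE 0.09, adjusted p = 0.192) and was called higher with the block (0.19, adjusted p = 0.00912), while DDIT4, an inhibitor of mTORC1, differed by 0.00 (SE 0.04) and the lipoprotein receptor VLDLR by 0.00 (SE 0.06).

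Of the 10 enzymes, MTHFD2 was called higher and 0 were called lower. MTHFD2, a mitochondrial folate enzyme, stood at 352, 312 and 313 CPM in induced E2 libraries and at 298, 247 and 261 CPM in induced vehicle libraries, without overlap. Its log2 change was 0.28 (SE 0.08, adjusted p = 0.0213), and the call was lost without induced vehicle replicate 2 (adjusted p = 0.0998), induced vehicle replicate 3 (0.0838) or induced E2 replicate 1 (0.0863). The enzymes of serine synthesis did not pass the test with it: PHGDH differed by 0.04 (SE 0.04), PSAT1 by 0.03 (SE 0.09) and PSPH by −0.12 (SE 0.06, adjusted p = 0.187, and 0.0045 with the block). SHMT2, which passes the serine carbon to folate one step before MTHFD2, differed by 0.00 (SE 0.04), and ASNS by 0.06 (SE 0.04). Values for CTH, CBS, PCK2 and ALDH1L2 ranged from −0.03 to 0.09, and CTH had a standard error of 0.18.

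All 12 member synthetases had a positive log2 change with E2 in induced cells, from 0.02 for WARS to 0.23 for SARS, with a median of 0.08; WARS turned negative under upper quartile scaling (−0.0049), without induced vehicle replicate 3 (−0.01) and without induced E2 replicate 1 (−0.04). SARS and GARS were called, where 9.85% of tested genes were called higher. In 9 of the 12 the induced E2 libraries lay wholly above the induced vehicle ones, as in 16.6% of tested genes. SARS stood at 491, 462 and 472 CPM in induced E2 libraries and at 431, 400 and 387 CPM in induced vehicle libraries, with a log2 change of 0.23 (SE 0.04, adjusted p = 0.00146) that passed the test under all 19 alternatives. GARS, which charges glycine tRNA, stood at 536, 491 and 492 CPM in induced E2 libraries and at 470, 458 and 452 CPM in induced vehicle libraries. Its log2 change of 0.14 (SE 0.04, adjusted p = 0.0459) was near the threshold. Under upper quartile scaling the adjusted p was 0.115, and the call was lost for 9 of 12 libraries left out, at adjusted p up to 0.18 without induced E2 replicate 1; it held only without the number 1 libraries of the other groups. CARS, for cysteine, fell just outside, at 0.12 (SE 0.04, adjusted p = 0.052). With the block, AARS, CARS, MARS and TARS were also called higher, where 13.5% of tested genes were.

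**Figure D3:**
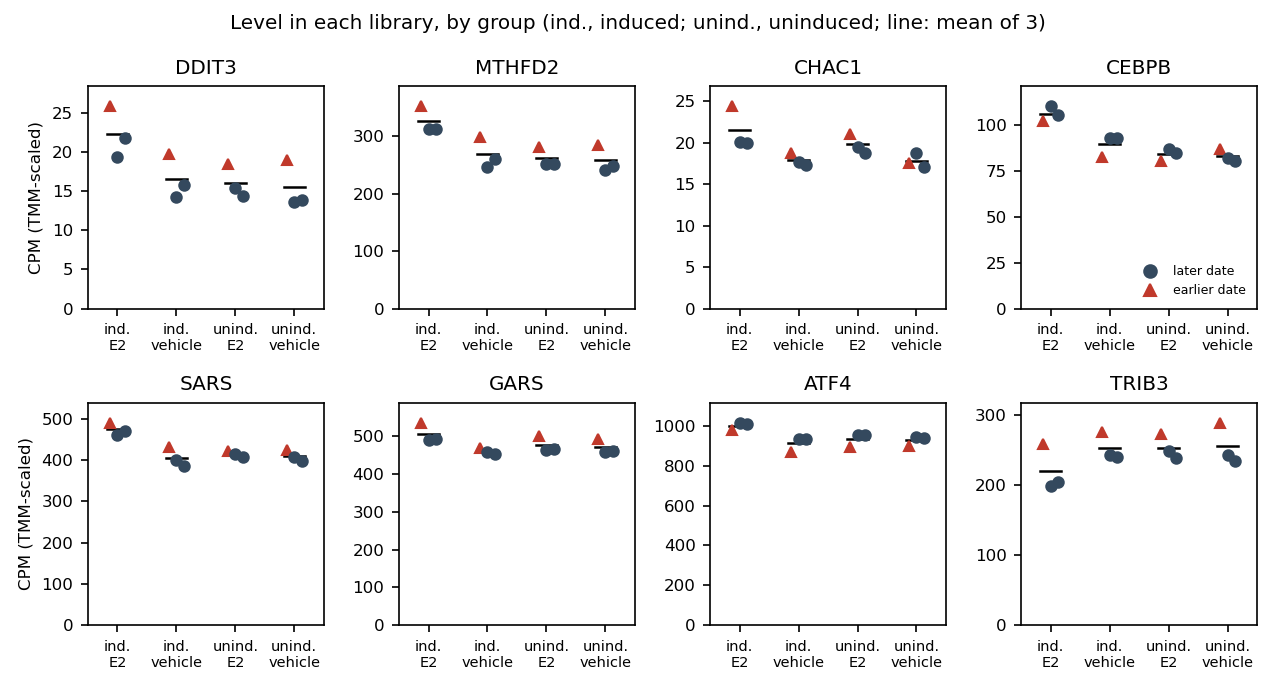
CPM of 7 members called with E2 in induced cells, and of TRIB3, in each library, with groups from induced E2 at the left to uninduced vehicle at the right and a line at the mean of 3. Triangles are the earlier-dated libraries, which stand highest in each group for DDIT3, MTHFD2, SARS, GARS and TRIB3 and lowest in each for ATF4.

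Of the 10 members that hold the core in their window, 2 were called higher (CHAC1 and GARS), against 5 of 17 with a window and no match, among them SARS, DDIT3 and MTHFD2. Median log2 changes were 0.09 with the core and 0.04 without it. These are descriptions, and no test of the difference was made.

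Some related genes outside the 32 changed more. Of 24 tested other known ATF4 targets, E2 in induced cells raised 7 and lowered 1 (JDP2), with a median log2 change of 0.13. The amino acid transporter SLC7A5 stood at 1860, 1485 and 1553 CPM in induced E2 libraries and at 857, 658 and 674 CPM in induced vehicle libraries, a log2 change of 1.16 (SE 0.12, adjusted p = 8.04e-06). Its partner chain SLC3A2 changed by 0.62 (SE 0.10, adjusted p = 0.000375), the glutamine transporter SLC1A5 by 0.46 (SE 0.03, adjusted p = 2.09e-07) and the stress factor ATF3 by 0.45 (SE 0.07, adjusted p = 0.000267). These 4 were picked by smallest p among the called genes, so they do not stand for the list, where 15 of 24 changes were positive. Each exceeded the change of ATF4 itself. SLC7A5 and SLC3A2 exceeded that of DDIT3 (0.45, SE 0.14), and SLC1A5 and ATF3 lay close to it.

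The IRE1 and ATF6 arms of the unfolded protein response, which act beside PERK when the endoplasmic reticulum is stressed, had 11 of 17 genes higher and 0 lower, with a median of 0.24. XBP1, the factor that IRE1 splices, stood at 847, 973 and 939 CPM in induced E2 libraries and at 522, 501 and 511 CPM in induced vehicle libraries (log2 change 0.85, SE 0.05, adjusted p = 1.13e-08). DNAJB9, a chaperone of that compartment, changed by 0.84 (SE 0.06, adjusted p = 1.96e-07). Of 15 genes for eIF2 kinases, phosphatase subunits and eIF2B, 2 rose and 1 fell: EIF2AK3, which encodes PERK, rose by 0.45 (SE 0.05, adjusted p = 1.05e-05), PPP1R15B, which helps to reverse eIF2α phosphorylation, rose by 0.23 (SE 0.06, adjusted p = 0.00906), and EIF2AK4, which encodes GCN2, fell by 0.18 (SE 0.05, adjusted p = 0.0115).

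The synthetases outside the 32 genes were set beside them for comparison. Of the 8 other cytosolic synthetases 0 were called, by edgeR or DESeq2, with 1 at an unadjusted p under 0.05, a median of −0.02 and 2 positive values. Of 17 mitochondrial synthetases 1 was lower (MARS2, −0.25, SE 0.08, adjusted p = 0.0355) and 0 higher, with a median of −0.07. Of 18 tested other serine and one-carbon genes 1 was higher, MAT2A, which makes S-adenosylmethionine, at 0.11 (SE 0.03, adjusted p = 0.0396). Of 10 tested family relatives of the members, 4 were lower and 1 higher, among them SESN3 (−0.90, SE 0.10), CEBPD (−0.64, SE 0.08) and TRIB2 (−0.63, SE 0.09). With the block, 1 of the 8 other cytosolic and 2 of the 17 mitochondrial synthetases were lower and 0 were higher. In that fit 10.3% of tested genes were lower and 13.5% higher.

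**Figure D4:**
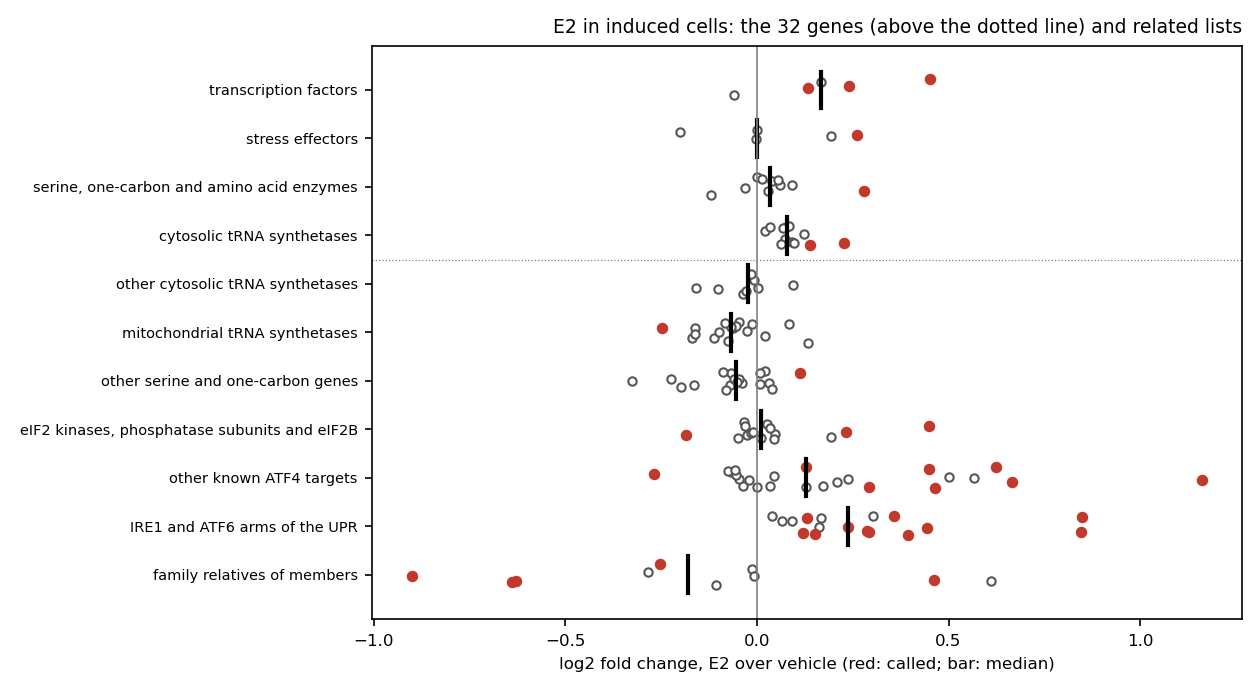
Log2 fold change with E2 in induced cells of each gene, by role for the 32 genes and by list for related genes, with red points for called genes and bars at each median. The IRE1 and ATF6 list has the highest median (0.24), and the other cytosolic and mitochondrial synthetases have medians below 0 (−0.02 and −0.07).

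Without induction, E2 changed 0 of the 32 members by edgeR, where 0% of tested genes were called in either direction. At an unadjusted p under 0.05 there were 0 members and 227 of 14541 genes, and DESeq2 called 0 members. Log2 changes ran from −0.03 to 0.15. CHAC1 had the largest, with 21.1, 19.5 and 18.8 CPM in uninduced E2 libraries and 17.5, 18.7 and 17.1 CPM in uninduced vehicle libraries, which did not overlap, and a log2 change of 0.15 (SE 0.08, adjusted p = 1). ATF4 differed by 0.01 (SE 0.04).

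Whether the E2 change differed between induced and uninduced cells was tested by the interaction. SARS was called higher and 0 members lower, where 5.66% of tested genes were called higher and 2.81% lower. The E2 change of SARS was 0.23 in induced cells and 0.02 in uninduced cells, a difference of 0.21 (SE 0.06, adjusted p = 0.0443). That call was lost under upper quartile scaling (adjusted p = 0.104) and for 10 of 12 libraries left out, at adjusted p up to 0.127 without induced vehicle replicate 3; it held without uninduced vehicle replicate 3 or induced vehicle replicate 1. With the block 6 members were called higher (ATF4, DDIT3, CEBPB, MTHFD2, GARS and SARS) and 2 lower (TRIB3 and PSPH), against 8.86% and 5.88% of tested genes. Outside the 32 genes and without the block, 7 of 17 IRE1 and ATF6 genes, 4 of 24 other known ATF4 targets and 1 of 15 eIF2 genes were called higher. Of 10 family relatives 1 was higher and 3 were lower. The other synthetases and the other serine and one-carbon genes had 0 calls. Among those called, EIF2AK3 differed by 0.48 (SE 0.07, adjusted p = 0.000387), SLC7A5 by 1.15 (SE 0.17, adjusted p = 0.000483) and XBP1 by 0.80 (SE 0.06, adjusted p = 2.28e-06).

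Doxycycline without E2 was the next comparison. By edgeR 0 of the 32 members were called, where 2.44% of tested genes were higher and 1.37% lower. At an unadjusted p under 0.05 there were 3 members, PHGDH, CEBPB and ASNS, and 2247 of 14541 genes. DESeq2 called PHGDH lower, as it did 204 of 14541 genes. PHGDH stood at 659, 735 and 723 CPM in induced vehicle libraries and at 771, 808 and 779 CPM in uninduced vehicle libraries, without overlap. Its log2 change was −0.16 (SE 0.04, adjusted p = 0.0537, and 0.0011 with the block), and with the block ASNS was also called lower (−0.10, adjusted p = 0.0498), so that 2 of 32 were lower and 0 higher, where 4.48% of tested genes were called lower and 5.54% higher. ATF4 differed by −0.02 (SE 0.04). In the related lists few genes were called without the block. Higher were 2 of 17 IRE1 and ATF6 genes and 1 of 24 other known ATF4 targets. Lower were 1 of 8 other cytosolic synthetases and 1 of 10 family relatives. The mitochondrial synthetases, the other serine and one-carbon genes and the eIF2 genes had 0 calls. Among those called, XBP1 rose by 0.62 (SE 0.05, adjusted p = 2.22e-06), SLC7A5 by 0.54 (SE 0.12, adjusted p = 0.0216), and VARS, the valine synthetase, fell by 0.24 (SE 0.05, adjusted p = 0.0218).

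With E2 present, doxycycline raised 4 members (DDIT3, CEBPB, MTHFD2 and SARS) and lowered 1, CBS, the enzyme that joins homocysteine to serine, where 15% of tested genes were called higher and 13% lower. This comparison shares its induced E2 libraries with that of E2 in induced cells and its uninduced E2 libraries with that of E2 in uninduced cells. The log2 changes were 0.48 (SE 0.14, adjusted p = 0.0187) for DDIT3, 0.34 (SE 0.05, adjusted p = 0.000178) for CEBPB, 0.32 (SE 0.08, adjusted p = 0.00594) for MTHFD2 and 0.19 (SE 0.04, adjusted p = 0.00301) for SARS. The call of DDIT3 was lost without uninduced E2 replicate 2 (adjusted p = 0.0693), uninduced E2 replicate 3 (0.0864) or induced E2 replicate 1 (0.0761). CBS stood at 288, 280 and 272 CPM in induced E2 libraries and at 323, 309 and 293 CPM in uninduced E2 libraries, a log2 change of −0.14 (SE 0.04, adjusted p = 0.0172), and its call was lost without uninduced E2 replicate 1 (adjusted p = 0.0778), uninduced E2 replicate 2 (0.0522) or induced E2 replicate 3 (0.0807). With the block 9 members were called higher and 4 lower (19.1% and 18.2% of tested genes): ATF4, GARS, WARS, TARS and CARS joined the higher ones and TRIB3, PHGDH and PSPH the lower. Of 17 mitochondrial synthetases 5 were lower and 0 higher.

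The members also differed between the dates in the file names, by a model with the 4 groups and the date. In the later-dated libraries 19 members were lower and 1 was higher, against 7.91% lower and 9.98% higher over all tested genes, and the median was −0.08, against 0.00 over all tested genes. In 18 members both later libraries lay below the earlier one in all 4 groups, as did 8.84% of tested genes; in 1, ATF4, both lay above it, as did 10.7%. The largest differences were −0.47 (SE 0.06, adjusted p = 3.85e-06) for CTH, −0.36 (SE 0.05, adjusted p = 5.87e-05) for DDIT3, −0.25 (SE 0.03, adjusted p = 1.77e-06) for TRIB3 and −0.25 (SE 0.02, adjusted p = 3.24e-08) for PSAT1. CTH stood in later libraries at 11.4 to 11.5 CPM in induced E2, 11 to 11.5 CPM in induced vehicle, 10.9 to 11.6 CPM in uninduced E2 and 11.3 to 11.6 CPM in uninduced vehicle cells, and in the earlier libraries of these groups at 16.9, 15.1, 16 and 14.2 CPM. ATF4 was higher by 0.08 (SE 0.02, adjusted p = 0.00353).

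By role, the later libraries were lower for 2 of 5 transcription factors, 3 of 5 stress effectors, 6 of 10 enzymes and 8 of 12 synthetases. Of 24 tested other known ATF4 targets 15 were lower and 1 higher, with STC2, a secreted stress glycoprotein, at −0.45 (SE 0.03, adjusted p = 5.62e-10) and the cystine transporter SLC7A11 at −0.38 (SE 0.04, adjusted p = 4.59e-07). The other cytosolic synthetases had 0 of 8 lower and 1 higher and the mitochondrial ones 1 of 17 lower. Date, replicate number and depth go together here, so they cannot be told apart, and each group holds 2 later and 1 earlier library.

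**Figure D5:**
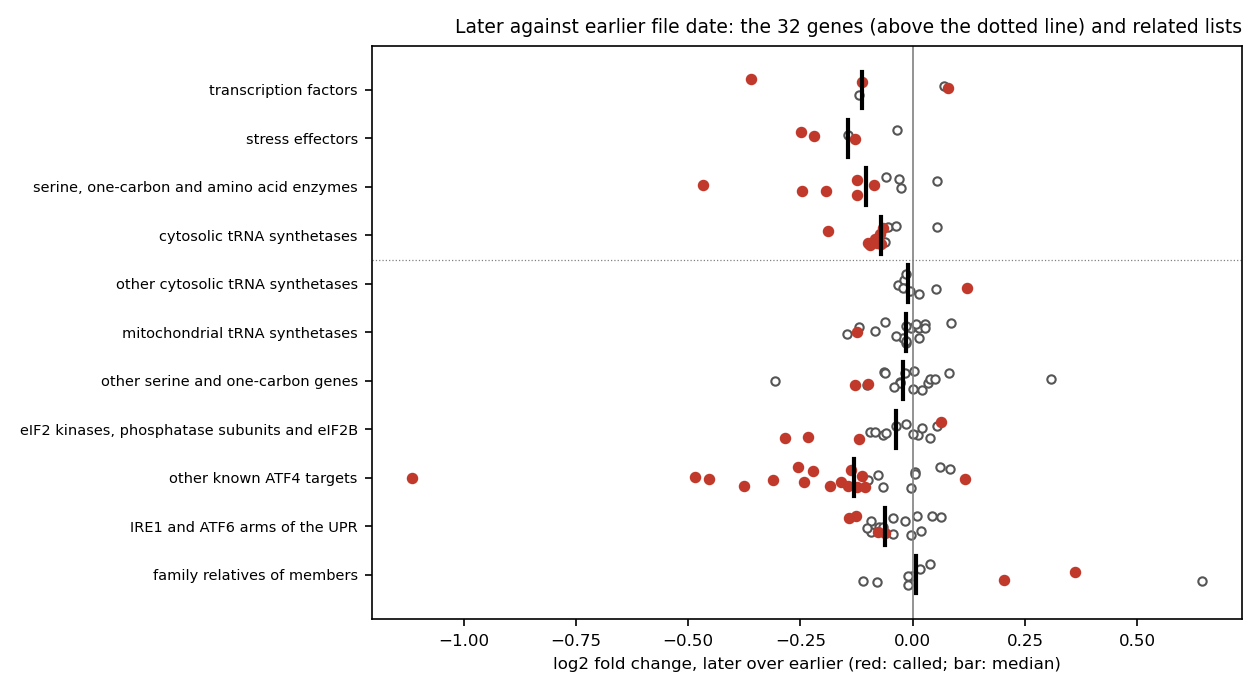
Log2 fold change of later over earlier libraries for each gene, by role for the 32 genes and by list for related genes, with red points for called genes and bars at each median. Of the 32 genes 19 are called lower and 1 higher (ATF4), and the other cytosolic synthetases have a median of −0.01.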

How the data were processed

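The authors deposited 1 table per library without column names. RSEM 1.1.16, hg19 and DESeq 1.7.10 are named in the submitters' processing notes, and from RSEM's layout and the values the deposited columns are expected counts per gene and the fraction of all transcripts that belong to a gene. No aligner is named in the sources used here. The deposited fraction was multiplied to TPM for levels per length only. These expected counts, rounded to whole numbers, were fitted by edgeR 4.0.16 (R 4.3.3; TMM scaling; filterByExpr with a minimum count of 10 and total of 15), with 1 mean per group over 12 libraries and 8 residual degrees of freedom. Benjamini-Hochberg adjustment ran over all 14541 tested genes in each comparison, and calls were made at an adjusted p under 0.05. The fit was tested on simulated data. CPM are TMM-scaled. Promoters came from RefSeq (GRCh38.p14), and no genome position was taken from the files.

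The members, lists and tests were chosen with earlier results of these data known. The rule for values in every library asked for a called log2 change of at least 0.5, which 0 members met, and for ATF4; other library values illustrate a subgroup. Of the other lists, up to 4 called genes with the smallest p were eligible.

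Same-numbered libraries of different groups deviated together (r 0.104 to 0.464 over 12376 genes in 18 pairs). In 36 pairs of different numbers r was −0.427 to 0.278. The date goes with the number, so these values cannot tell pairing by number from file date. The alternatives were the replicate block, DESeq2 1.42.0, RLE and upper quartile scaling, no filter, the later date alone, an adjusted p under 0.01 and each library left out. Depth ran from 7.89 to 33.3 M counts per library, lowest at the earlier date. PSPH and PSAT1 have pseudogene copies with which reads can be shared, so their counts are less certain.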

Additional observations from a re-analysis of the deposited data

Results flagged for a closer look

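The change of SARS with E2 was 0.23 on the log2 scale in induced cells and 0.02 in uninduced cells, and the difference of 0.21 passed a test of the difference itself (edgeR's quasi-likelihood test, adjusted p = 0.0443). Each same-numbered pair in induced cells was positive. SARS was the 1 member of 32 called in that test, where 5.66% of tested genes were called higher. The call was lost under 12 of 19 alternatives, 10 of them with a library left out. The adjusted p ranged from 0.000753 to 0.127 over the alternatives.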

How the results depend on the processing

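With the replicate block, which pairs libraries by number, the counts of members higher and lower became 13 and 2 for E2 in induced cells, 0 and 2 for doxycycline without E2, 9 and 4 for doxycycline with E2, and 6 and 2 for the interaction; it left the 0 calls of E2 in uninduced cells. Within the later date alone they were 9 and 2, 1 and 2, 9 and 5, and 2 and 2 in that order of comparisons. Of 14612 genes tested there, 1908 were higher and 1483 lower for E2 in induced cells. The counts were 643 and 439 for doxycycline without E2 and 2668 and 2396 for doxycycline with E2. For the interaction they were 1276 and 829. Upper quartile scaling gave 3 higher for E2 in induced cells and 1 lower for doxycycline without E2 (1258 higher and 230 lower of 14541 tested genes). It gave 3 lower for doxycycline with E2 and 0 higher for the interaction (2679 lower and 700 higher of 14541). DESeq2 gave 1 lower for doxycycline without E2 (204 lower of 14541). At an adjusted p under 0.01 there were 2 higher for E2 in induced cells and 0 lower for doxycycline with E2. There were 0 higher for the interaction and 11 lower for the later date. Of 14541 tested genes these counts were 1009, 1169, 508 and 660 in that order. Leaving out each library gave 3 to 9 higher and 0 to 2 lower for E2 in induced cells, 0 to 1 lower for doxycycline without E2, 3 to 5 higher and 0 to 3 lower for doxycycline with E2, 0 to 1 higher for the interaction, and 1 to 2 higher and 14 to 20 lower for the later date. The 3 came without induced vehicle replicate 2, induced vehicle replicate 3 or induced E2 replicate 1, and the 4 without uninduced E2 replicate 2 or induced E2 replicate 3. Over the 14636 to 14739 genes tested in these fits, 1131 to 1470 were higher and 609 to 1024 lower for E2 in induced cells. Doxycycline without E2 had 111 to 219 lower, and doxycycline with E2 had 1845 to 2345 higher and 1464 to 2065 lower. The interaction had 650 to 880 higher. The later date had 1097 to 1419 higher and 808 to 1109 lower. The cause of these moves was not tested. No direction of a called value reversed. In the library of 7.89 M counts the members with the fewest counts were CTH (114), CHAC1 (140), DDIT3 (151) and ATF5 (162).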
